A study of Mus musculus with 6 samples.

Results

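Lymphoid genes were examined in megakaryocyte progenitors (MkP), precursors in blood-forming tissue whose descendants are megakaryocytes and platelets. The genes were Dntt, Rag2, Vpreb1, Vpreb3, Igll1, Ighm, Cd79b, Blnk, Ebf1 and Nkg7, 10 in all of 18193 genes with a probe set of their own. They were found by gene symbol, as 27 of the 45037 probe sets of an Affymetrix array. A further 5 probe sets list Ighm or Vpreb1 beside other genes and were not assigned to either. The arrays compared MkP of fetal liver (3 arrays, E13.5 embryos) with MkP of bone marrow (3 arrays, adult mice of 12 to 18 weeks), all wild type C57BL/6. In both organs the sort took cells without lineage markers and without Sca-1 that carried c-kit, CD150 and CD41. The lineage antibodies and the number of animals behind each sample are not given in the labels, so the p-values measure the spread between these samples.

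In developing B cells the immunoglobulin heavy chain gene is assembled by the RAG recombinase, and terminal transferase, encoded by Dntt, adds bases at the joints. The first heavy chain pairs with a surrogate light chain made of a VpreB protein and lambda 5, which Igll1 encodes, and signals through CD79 and the adaptor BLNK. EBF1 is the transcription factor that commits progenitors to this programme. Dntt and transcripts of the unrearranged heavy chain locus are also known in early progenitors that still have other fates. Nkg7 encodes a granule membrane protein of natural killer and cytotoxic T cells.

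The deposited values are MAS5 signals on a linear scale, and arrays were scaled to a common mean. A signal is called above background here where it exceeds the highest of the 27 bacterial control probe sets of its array, a limit between 22.2 and 35.1. Of the 27 lymphoid probe sets, 4 were above it on all 6 arrays and 6 on no array. On all 3 fetal liver arrays 4 were above it, against 10 on all 3 marrow arrays. The array median was 64.2 ± 1.34 in fetal liver and 76.9 ± 3.06 in marrow (SD, n = 3 each, exact permutation p = 0.1, two-sided, the smallest that 3 against 3 allows). Probe sets above background made up 61.6% ± 1.93 and 65.0% ± 3.39 of the array (SD, n = 3 each) in fetal liver and marrow. The 5' to 3' ratio of Actb, a measure of RNA integrity, was 0.961 ± 0.0646 in fetal liver and 1.09 ± 0.0377 in marrow, and that of Gapdh was 0.33 ± 0.192 in fetal liver and 0.193 ± 0.103 in marrow (SD, n = 3 each). The Actb ratios did not overlap between tissues and the Gapdh ratios did (exact permutation p = 0.1 and 0.3). Over probe sets bright enough to be tested, arrays correlated (log2 signal) at 0.922 to 0.954 within fetal liver and at 0.874 to 0.898 within marrow, against 0.831 to 0.873 between the tissues.

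Dntt and Nkg7 were lower in fetal liver MkP, and no lymphoid gene was past the threshold in the other direction. The test was limma across 27022 probe sets whose mean log2 signal passed a filter at the 40th percentile, about 31.4 in signal, with a threshold of 0.05 on the Benjamini-Hochberg adjusted p. Log2 changes are fetal liver minus marrow on the scale log2(signal + 2.87), which understates the change of dim genes. Of the 27 lymphoid probe sets 11 were kept, from 8 genes, while Blnk and Ebf1 had none. A probe set that passes such a filter through one tissue alone had to differ, so the kept probe sets do not stand for all 27. Past the threshold were 4 probe sets, all lower in fetal liver, 3 of Dntt and 1 of Nkg7. The 3 of Dntt passed the filter through marrow alone. Over the array 5.06% of kept probe sets passed, 3.28% lower and 1.78% higher in fetal liver. The lower ones were 64.8% of those calls, or 35.2% under median centring of the arrays. Counted without the filter, 9 of the 27 had all 3 fetal liver signals below all 3 marrow signals and 1 had them all above, where the array as a whole had 11.8% and 8.68%. These 9 belonged to 6 genes, Dntt, Ighm, Vpreb1, Vpreb3, Blnk and Nkg7, and 3 of them measure Dntt. The median log2 change of the 27 was -0.77 in a fit with no filter, against -0.07 over all probe sets. In sorted bulk RNA, fewer cells of a type and less RNA per cell cannot be told apart.

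**Figure D1:**
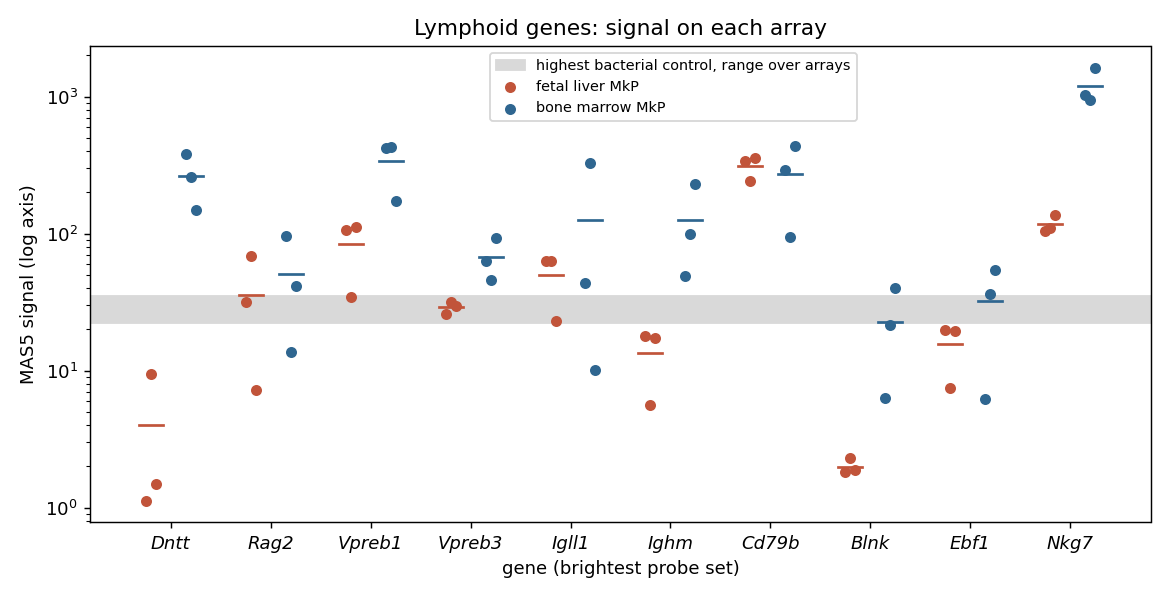
MAS5 signal (log axis) of the brightest probe set of each of the 10 lymphoid genes on each array, with 3 fetal liver arrays left and 3 bone marrow arrays right, group means as lines, and the range of the highest bacterial control as a grey band. Dntt, Ighm, Blnk and Ebf1 lay below the band on every fetal liver array, and Nkg7 lay above it on all 6 arrays with no overlap between tissues; levels of different probe sets are not comparable.

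Terminal transferase was measured by 3 probe sets, all of which fell. Probe set 1449757_x_at had Dntt signals of 1.13, 9.45 and 1.49 in fetal liver, against 379, 261 and 150 in marrow. Probe set 1420166_at had Dntt signals of 21.9, 17.1 and 17.0 in fetal liver, against 179, 242 and 165 in marrow. For 1450545_a_at the Dntt signals were 11.2, 20.0 and 4.78 in fetal liver, against 58.7, 81.5 and 133 in marrow. On each probe set every fetal liver array was below background and every marrow array above it, and the groups did not overlap. Because the fetal liver level is only a bound, Dntt was at least 7.58-fold, 5.97-fold and 2.72-fold lower on these probe sets (limma adjusted p = 0.00166, 0.00697 and 0.0457). All 3 passed the filter through marrow alone and so had to differ. In the limma fit with no filter their adjusted p was 0.00325, 0.0161 and 0.0834. The bound sets the marrow mean against the mean, in fetal liver, of the higher of the probe set's own signal and the background limit, on the log2 scale. The call of 1450545_a_at was lost in each of the 6 fits that left out 1 array (adjusted p = 0.0709 to 0.174) and in 12 of 15 alternatives in all, with a range of 0.0358 to 0.174. The calls of the other Dntt probe sets held wherever they were tested, in 14 and 16 alternatives (adjusted p up to 0.0133 and 0.0339).

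The Dntt probe sets did not rank the marrow arrays alike. Marrow replicate 1 was highest on 1449757_x_at, replicate 2 on 1420166_at and replicate 3 on 1450545_a_at. The suffix of 1449757_x_at marks a probe set that may also bind other transcripts. Among kept probe sets of other genes, the one most like 1449757_x_at over the 6 arrays was that of Cc2d1a (Pearson r = 0.998 of log2 signal). Of 22405 probe sets compared, 799 had r above 0.9, so this likeness was shared widely.

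**Figure D2:**
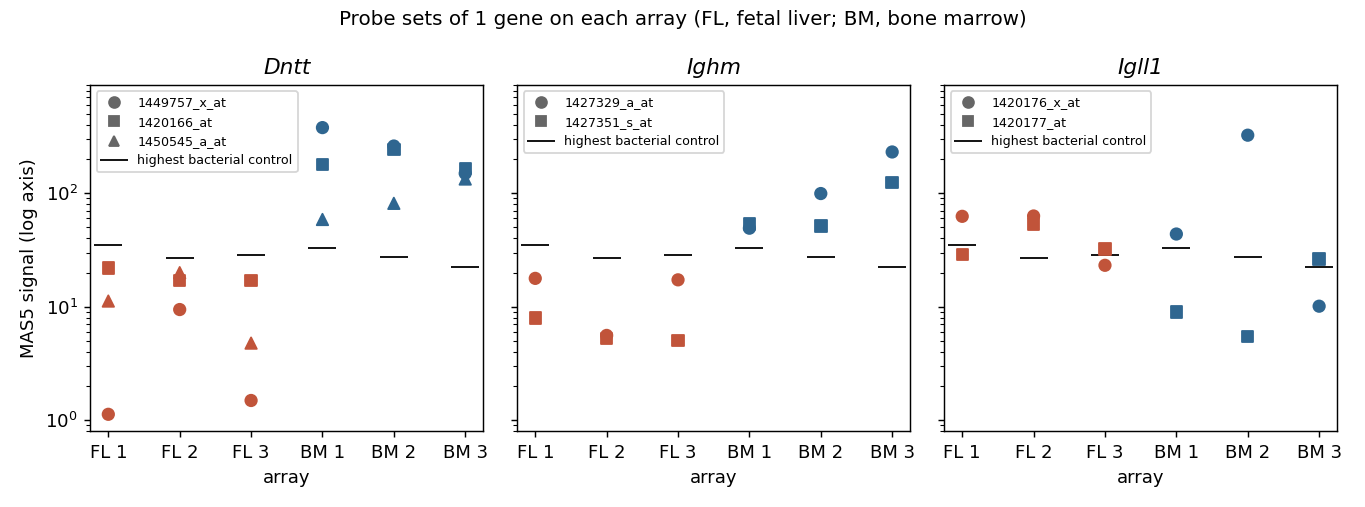
MAS5 signal (log axis) of single probe sets of Dntt, Ighm (the pair without overlap) and Igll1 on each array, with the highest bacterial control of that array as a dash. All 3 Dntt and both Ighm probe sets are below the dash on the fetal liver arrays and above it on the marrow arrays, while the Igll1 pair lies on both sides of it in both tissues.

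The promoter of Dntt is shown because all 3 of its probe sets were called lower. The sequence is RefSeq's on GRCm38.p6, from 250 bases before to 50 after the annotated start, written 5' to 3'. Of the 10 genes 8 had such a window, and the 4 printed were chosen after the values were seen. Capitals mark matches on either strand to CCCNNGGG, a core of the EBF site, to CAGGTG, an E-box that E proteins bind, and to GAGGAA, a core that PU.1 and other ETS factors bind. Among 32851 windows of the same length, 13.7% hold CCCNNGGG, 20.2% CAGGTG and 28.3% GAGGAA. None of the 3 strings occurs in the Dntt window, which says nothing about the factors.
Dntt promoter, chr19:41029025-41029324, plus strand: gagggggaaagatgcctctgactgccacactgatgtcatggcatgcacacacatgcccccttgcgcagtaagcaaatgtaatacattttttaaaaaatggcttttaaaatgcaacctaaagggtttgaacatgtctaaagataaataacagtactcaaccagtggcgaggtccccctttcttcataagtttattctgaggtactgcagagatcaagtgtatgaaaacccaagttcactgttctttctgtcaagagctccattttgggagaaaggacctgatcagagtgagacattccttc

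Rag2, the recombinase subunit that works with RAG1, showed no difference beyond the spread. Its signals were 31.5, 68.2 and 7.17 in fetal liver, against 95.7, 13.8 and 41.7 in marrow. The arrays overlapped fully, and Rag2 was above background on 1 fetal liver array and on 2 marrow arrays. The log2 change was -0.53 ± 0.89 (SE, limma adjusted p = 0.806), and its sign turned without fetal liver replicate 3 (0.24) and without marrow replicate 1 (0.09).

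None of the surrogate light chain genes was past the threshold. Vpreb1 had signals of 107, 34.3 and 113 in fetal liver, against 419, 429 and 172 in marrow. All 6 values were above background, and the tissues did not overlap. The log2 change of Vpreb1 was -2.03 ± 0.59 (SE, limma adjusted p = 0.0793), and over 17 alternatives the adjusted p ran between 0.06 and 0.261. A probe set that lists both Vpreb1 and Vpreb2, 1422416_s_at, overlapped between tissues and was not kept. Its signals were 6.94, 20.97 and 66.98 in fetal liver, against 33.75, 37.55 and 42.95 in marrow. Vpreb3, a VpreB-like protein of B cell precursors, had signals of 25.9, 31.8 and 29.6 in fetal liver, against 63.2, 45.7 and 92.4 in marrow. These too did not overlap, with 2 of 3 fetal liver arrays above background, and the change was -1.08 ± 0.58 (SE, limma adjusted p = 0.342).

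Igll1 gave no single direction. On 1420176_x_at it had signals of 62.6, 63.0 and 23.2 in fetal liver, against 43.7, 325 and 10.1 in marrow. Marrow replicate 2 stood far above the other 5 arrays. The log2 change was -0.27 ± 1.02 (SE, limma adjusted p = 0.924), and it was 0.97 without marrow replicate 2 and 0.17 without fetal liver replicate 3. The second probe set, 1420177_at, fell below the filter, with Igll1 signals of 28.8, 53.5 and 32.1 in fetal liver, against 8.95, 5.48 and 26.4 in marrow. It was the 1 lymphoid probe set with all fetal liver arrays above all marrow arrays, and 2 fetal liver arrays and 1 marrow array were above background. Its change in the fit with no filter was 1.48 ± 0.75 (SE, limma adjusted p = 0.39).

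Vpreb1 and Igll1 are neighbours, with no annotated gene between them in the RefSeq table of GRCm38.p6, and their promoters are shown because their signals differed in pattern. The Vpreb1 window holds CAGGTG starting 88 bases before the start site and GAGGAA, on the other strand, at 81 bases before it. The Igll1 window holds all 3 strings, CCCNNGGG at 231 bases before the start site, CAGGTG on the other strand at 8 bases before it and GAGGAA at 25 bases after it. A match is a description of the letters and not a binding site.
Vpreb1 promoter, chr16:16869206-16869505, minus strand: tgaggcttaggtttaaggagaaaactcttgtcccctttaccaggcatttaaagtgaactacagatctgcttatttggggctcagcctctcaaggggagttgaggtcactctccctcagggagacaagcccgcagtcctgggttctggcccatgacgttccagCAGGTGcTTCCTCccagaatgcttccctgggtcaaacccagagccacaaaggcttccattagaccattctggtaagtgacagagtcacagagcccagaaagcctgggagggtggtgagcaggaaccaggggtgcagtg
Igll1 promoter, chr16:16863936-16864235, minus strand: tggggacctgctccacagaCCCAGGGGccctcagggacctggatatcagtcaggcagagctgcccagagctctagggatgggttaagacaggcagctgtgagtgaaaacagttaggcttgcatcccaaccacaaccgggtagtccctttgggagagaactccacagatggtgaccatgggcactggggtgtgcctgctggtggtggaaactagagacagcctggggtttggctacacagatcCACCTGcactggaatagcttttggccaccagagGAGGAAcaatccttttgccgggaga

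Ighm, the mu constant region of the immunoglobulin heavy chain, had 11 probe sets, of which 2 were kept by the filter. On 1427329_a_at its signals were 17.8, 5.59 and 17.3 in fetal liver, against 49.2, 99.4 and 231 in marrow. On 1427351_s_at, which fell below the filter, Ighm signals were 7.99, 5.24 and 5.03 in fetal liver, against 53.4, 51.6 and 125 in marrow. On both, every fetal liver array was below background, every marrow array was above it and marrow replicate 3 was highest. The first passed the filter through marrow alone. By the bound, Ighm was at least 3.28-fold lower on it, just short of the threshold (limma adjusted p = 0.0526). That call was made with an offset of 16 (adjusted p = 0.0475) and without marrow replicate 1 (0.0479), in a range of 0.0475 to 0.188 over all alternatives. On the second the bound was 2.23-fold, with an adjusted p of 0.0469 in the limma fit with no filter, where 4 of the 27 lymphoid probe sets were lower against 1.75% of the array. The other kept probe set, 1426196_at, had Ighm signals of 48.5, 36.3 and 34.7 in fetal liver, against 45.7, 59.0 and 48.2 in marrow, and these overlapped (log2 change -0.34 ± 0.56, SE, limma adjusted p = 0.799). The other 8 Ighm probe sets overlapped between tissues, and none of them was above background on all arrays of either tissue. Transcripts of related heavy chain genes may bind to these probes.

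Of the signalling chains of the B cell receptor, Cd79b was present in both tissues. Its signals were 337, 243 and 353 in fetal liver, against 289, 94.6 and 437 in marrow. The marrow values spanned the fetal liver ones on both sides. The log2 change of Cd79b was 0.42 ± 0.54 (SE, limma adjusted p = 0.738), and -0.21 without marrow replicate 2, the lowest array. Blnk, the adaptor downstream of SYK, was dim, with signals of 1.82, 2.30 and 1.87 in fetal liver, against 6.35, 21.4 and 39.9 in marrow. Marrow replicate 3 was the 1 array above background, and although the tissues did not overlap, Blnk fell below the filter and gives no measured fold (limma adjusted p = 0.139 in the fit with no filter).

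Ebf1 was at or below background on most arrays. None of its 5 probe sets was kept, and none was above background on any fetal liver array. On 1439789_at, Ebf1 signals were 19.8, 7.50 and 19.6 in fetal liver, against 6.23, 36.0 and 54.0 in marrow. On 1416301_a_at they were 4.97, 8.72 and 4.53 in fetal liver, against 4.19, 65.6 and 27.2 in marrow. On both probe sets marrow replicates 2 and 3 were above background and marrow replicate 1 was not. The other 3 Ebf1 probe sets were below background on all 6 arrays, and all 5 overlapped between tissues.

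**Figure D3:**
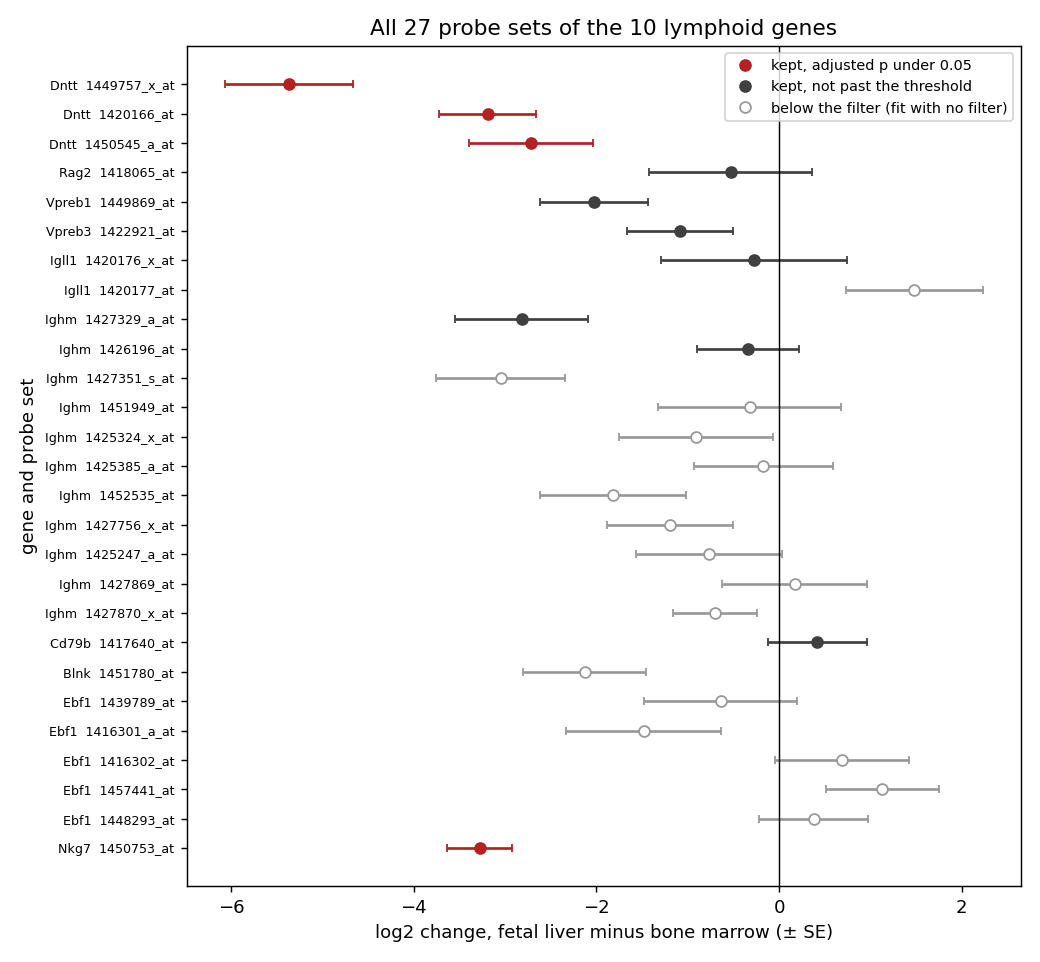
Log2 change with its standard error, fetal liver minus bone marrow, of all 27 probe sets, with filled points for those kept by the filter and open points for those below it, whose values come from the fit with no filter. The 4 red points, 3 of Dntt and 1 of Nkg7, are past the threshold, and those of Dntt passed the filter through marrow alone. Left of 0 lie 21 of 27 points, or 77.8%, against 54.4% of all probe sets in the fit with no filter. Of the 27, 11 measure Ighm.

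Nkg7 had the smallest adjusted p of the lymphoid probe sets. Its signals were 105, 110 and 137 in fetal liver, against 1028, 939 and 1626 in marrow. All 6 arrays were above background, the highest fetal liver array was far below the lowest marrow array, and marrow replicate 3 was the highest. Nkg7 averaged 117.5 ± 17.3 in fetal liver and 1198 ± 374 in marrow (SD, n = 3 each), a log2 change of -3.28 ± 0.36 (SE, limma adjusted p = 6.72e-04). This call held in all 17 alternatives, with adjusted p between 4.05e-04 and 0.00679 and changes without 1 array between -3.44 and -3.04.

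Over the 6 arrays the gene most like Nkg7 was Lyz2, the lysozyme of myeloid cells (Pearson r = 0.999 of log2 signal), and 871 of 22407 probe sets compared had r above 0.9. Lyz2 signals were 1259, 1181 and 1540 in fetal liver, against 6469, 5971 and 9136 in marrow. The same rule gave Rbl1 for Vpreb1 (r = 0.995), Gstm1 for Vpreb3 (0.996), Ahnak for Ighm (0.996) and Acan for Cd79b (0.997). With 6 arrays in 2 tissues, such values largely restate which tissue and which array was higher. The Nkg7 window on GRCm38.p6, shown because Nkg7 had the smallest adjusted p of the 10 genes, holds none of the 3 strings.
Nkg7 promoter, chr7:43436888-43437187, plus strand: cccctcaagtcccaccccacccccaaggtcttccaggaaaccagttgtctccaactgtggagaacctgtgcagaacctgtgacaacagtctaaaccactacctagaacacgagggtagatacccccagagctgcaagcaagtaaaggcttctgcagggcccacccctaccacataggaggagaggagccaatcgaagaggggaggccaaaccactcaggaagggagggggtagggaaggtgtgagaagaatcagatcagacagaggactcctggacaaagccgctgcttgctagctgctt

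Other genes of lymphoid cells were set beside these 10, in 8 lists that held 125 distinct genes with a probe set, 74 of them kept. The brightest gene named for each list is the one with the highest signal, a rule of choice and not a comparison of levels. Over all genes, each represented by its brightest kept probe set, 4.09% were lower and 2.26% higher in fetal liver, and the median change was 0.01. In the 8 lists 6 genes fell, 8.11% of those kept, and 0 rose (3 fell without fetal liver replicate 3). Lair1, among the 6, passed the filter through marrow alone and so had to differ. With no filter, 19 of the 125 genes were lower without overlap and 5 higher, which are 15.2% and 4% of them, against 12.0% and 10.8% of all genes.

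None of 12 measured early B-lineage genes passed the threshold in either direction (median -0.76), while 5 of the 23 on the array were lower in fetal liver without overlap and 1 higher. Without marrow replicates 1 or 3 the number that fell was 1. Cd72, a B cell coreceptor, had signals of 109, 133 and 61.9 in fetal liver, against 567, 320 and 252 in marrow (limma adjusted p = 0.0563), and it passed with the filter at the 60th percentile (0.0479), with 1 probe set per gene (0.0439) and with the replicate block (0.0463), in a range of 0.0439 to 0.206. Ikzf3, which encodes the factor Aiolos, had 30.2, 42.0 and 31.0 in fetal liver, against 74.5, 246 and 174 in marrow (limma adjusted p = 0.0801). Both were lower in fetal liver without overlap, as were Foxo1 (log2 change -1.35 ± 0.46, SE, limma adjusted p = 0.128) and Pou2af1, which was not kept (limma adjusted p = 0.0149 in the fit with no filter). The defining B cell genes Pax5 and Cd79a were not kept, and each was above background on at most 2 arrays. Cd24a, the brightest of the list, differed by -0.18 ± 0.28 (SE, limma adjusted p = 0.787).

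Among 7 mature B cell genes 1 fell and 0 rose (median -0.52). Cd74, the invariant chain of MHC class II that macrophages and dendritic cells carry too, had signals of 43.6, 86.5 and 3.56 in fetal liver, against 249, 373 and 714 in marrow. It fell by 3.77 ± 0.88 on the log2 scale (SE, limma adjusted p = 0.0346). The Cd74 call did not hold without fetal liver replicates 1 and 3 and without each marrow array (adjusted p = 0.0595 to 0.102), in a range of 0.00931 to 0.105. Ms4a1, which encodes CD20, was below background on all fetal liver arrays and above it on 1 marrow array. Of the 15 genes on the array, 1 was lower in fetal liver without overlap and 1, Bank1, was higher. Bank1 had signals of 31.57, 16 and 19.35 in fetal liver, against 1.67, 4.12 and 4.72 in marrow, all below background. The brightest gene, Cd37, differed by -0.52 ± 0.63 (SE, limma adjusted p = 0.716).

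Of 14 genes of lymphoid-primed progenitors 2 fell and 0 rose (median -0.46), and 1 fell without fetal liver replicate 2 or 3. Cd27, a receptor of the TNF receptor family on lymphocytes and on early progenitors, had signals of 16.5, 65.4 and 51.5 in fetal liver, against 1945, 2216 and 1123 in marrow. The groups were far apart, and Cd27 fell by 5.35 ± 0.53 on the log2 scale (SE, limma adjusted p = 3.25e-04). Gpr171, an orphan receptor when it was named, fell by 1.82 ± 0.40 (SE, limma adjusted p = 0.026), a call lost without fetal liver replicates 2 and 3 and without marrow replicates 1 and 2 (adjusted p = 0.0603 to 0.0912) in a range of 0.0106 to 0.0912. Flt3, the cytokine receptor that marks such progenitors, was above background on 1 marrow array and on no fetal liver array. Mef2c, the brightest, differed by -0.31 ± 0.15 (SE, limma adjusted p = 0.287).

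The signalling and recombination machinery that lymphocytes share with other cells was present in both tissues. All 14 genes of B cell receptor signalling were above background on every array, and 1 fell and 0 rose (median -0.11). Dok3, an inhibitory adaptor of B cells and myeloid cells, had signals of 93.0, 58.2 and 80.7 in fetal liver, against 244, 293 and 360 in marrow (log2 change -1.92 ± 0.45, SE, limma adjusted p = 0.0356). The Dok3 call was lost whichever array was left out (adjusted p = 0.0567 to 0.149), in a range of 0.0256 to 0.149. Cd81, the brightest, differed by 0.14 ± 0.20 (SE, limma adjusted p = 0.771). Of 10 genes of V(D)J recombination and end joining none passed the threshold (median 0.43). The Ku subunits Xrcc5 and Xrcc6 had log2 changes of 0.82 ± 0.35 and 0.48 ± 0.21 (SE, limma adjusted p = 0.221 and 0.227), and Hmgb2, the brightest, one of -0.09 ± 0.24 (adjusted p = 0.885).

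Few T cell and natural killer genes were bright enough to be kept, and no kept one was past the threshold. Of 7 measured T cell genes none passed the threshold (median -0.15), and 12 of the 20 on the array were above background on no fetal liver array and 6 on no marrow array. Cd5 had a log2 change of -1.71 ± 0.68 (SE, limma adjusted p = 0.193) and Lat, an adaptor of T cells that platelets also use and the brightest of the list, one of 0.38 ± 0.27 (adjusted p = 0.486). Of 4 measured natural killer and cytotoxic genes none passed (median -0.27), and 13 of the 19 on the array were above background on no fetal liver array and 8 on no marrow array. The activating receptor Ncr1 was below background on all 6 arrays. Prf1, perforin, had signals of 888, 891 and 933 in fetal liver, against 648, 736 and 1151 in marrow, which overlapped (log2 change 0.14 ± 0.29, SE, limma adjusted p = 0.843). The chemokine Ccl5 had a log2 change of -1.76 ± 0.64 (SE, limma adjusted p = 0.149) and Serpinb6b one of -0.31 ± 0.44 (adjusted p = 0.765). Ccl5 was lower in fetal liver without overlap, and so was Klrd1, which encodes the receptor chain CD94, was not kept and passed the threshold in the fit with no filter (limma adjusted p = 0.0433).

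Of 7 measured genes of plasmacytoid dendritic cells 2 fell and 0 rose (median -0.25). Irf8, a factor of dendritic cells, monocytes and B cells, had signals of 109, 80.9 and 58.4 in fetal liver, against 673, 1019 and 2820 in marrow (log2 change -3.91 ± 0.53, SE, limma adjusted p = 0.00213). Lair1, an inhibitory collagen receptor of many leukocytes, was below background on all fetal liver arrays at 0.634, 2.66 and 1.46, against 247, 732 and 370 in marrow, and was at least 12.5-fold lower (limma adjusted p = 3.01e-04). Lair1 passed the filter through marrow alone and so had to differ. Its adjusted p was 6.44e-04 in the limma fit with no filter. Siglech, the defining receptor of this cell type, was not kept. Its signals were 23.5, 19.2 and 17.8 in fetal liver, against 35.3, 6.69 and 24.5 in marrow, and these overlapped. The log2 change of Siglech was 0.09 ± 0.75 (SE, fit with no filter). It exceeded the background limit of the array on 2 marrow arrays and on no fetal liver array. Tcf4, the brightest of the list, differed by -0.18 ± 0.25 (SE, limma adjusted p = 0.755).

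Markers of other cell types moved with the tissue too, and their part in the lymphoid results was not tested. Summed signals of the granulocyte and monocyte list ran between 4925 and 7175 in fetal liver and between 46485 and 73264 in marrow. All 12 of its measured genes fell, but some passed the filter through marrow alone and so had to differ. Counted without the filter, the list had 14 of 15 genes on the array lower in fetal liver without overlap, against 12.0% of all genes. Mpo, its brightest gene, had 2550, 5004 and 3121 in fetal liver, against 19048, 8804 and 24687 in marrow. The sums of the macrophage list were 380 to 583 in fetal liver and 2039 to 4123 in marrow, where 3 of 6 genes fell (1 without marrow replicate 1), the brightest being Csf1r at -3.08 ± 0.39 (log2 change, SE, limma adjusted p = 0.00153), which is also in the granulocyte and monocyte list. Marco, a scavenger receptor of macrophages that was not kept, went the other way, with 32.8, 73.1 and 120 in fetal liver, against 4.70, 5.52 and 9.73 in marrow (limma adjusted p = 0.0685 in the fit with no filter). The sums of mast cell, basophil and eosinophil genes were 2357 to 6259 in fetal liver and 8551 to 12655 in marrow, where 3 of 7 fell and the brightest, Gata2, differed by -1.01 ± 0.36 (SE, limma adjusted p = 0.14). In these 3 lists 5, 4 and 4 genes were above background on no fetal liver array. Of the genes that fell, Cd163 of the macrophage list and Mcpt8 and Prg2 of the mast cell list passed the filter through marrow alone. Counted without the filter, 4 of 11 macrophage genes were lower without overlap and 1 higher. Of the mast cell, basophil and eosinophil genes 7 of 9 were lower and 0 higher. Marrow replicate 3, the highest of the marrow arrays for 6 of the 10 genes by their brightest probe set, had the highest sums of the granulocyte and macrophage lists, whereas the mast cell, basophil and eosinophil sum was highest on marrow replicate 2. Over all 27 probe sets marrow replicate 3 was the highest marrow array for 12. Its median signal over the whole array was also the highest of the marrow arrays, at 80.2 against 76.6 and 74.1 on replicates 1 and 2.

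Erythroid genes went the other way, with sums of 29017 to 44181 in fetal liver and 20860 to 26210 in marrow. Of 12 measured 5 rose, which became 2, 1 and 2 without fetal liver replicates 1, 2 and 3 and 2 and 3 without marrow replicates 2 and 3. Car2, the brightest, differed by -0.12 ± 0.14 (SE, limma adjusted p = 0.693). Hepatocyte genes summed to 658 to 3720 in fetal liver and 251 to 648 in marrow, and none of 5 measured passed the threshold. Of the 8 on the array 4, Alb, Apoa1, Apoa2 and Rbp4, were higher in fetal liver without overlap, and 1 was called with an offset of 16, quantile normalization, median centring, 1 probe set per gene, the floor and the replicate block. Afp, the brightest, overlapped, with 362, 2793 and 265 in fetal liver, against 457, 27.9 and 444 in marrow (log2 change 1.81 ± 1.07, SE, limma adjusted p = 0.394). Megakaryocyte genes summed to 50388 to 61806 in fetal liver and 53390 to 58241 in marrow. Of 15 measured 2 rose, Tubb1 and Clec1b, and 1 rose without fetal liver replicate 1 or 3 or marrow replicate 1 or 2. Pf4, a platelet chemokine and the brightest of the list, differed by -0.32 ± 0.14 (SE, limma adjusted p = 0.232).

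The sort markers Kit, Slamf1 (CD150) and Itga2b (CD41) were above background on all arrays, and their log2 changes were -0.55 ± 0.34, 0.29 ± 0.34 and -0.64 ± 0.22 (SE, limma adjusted p = 0.419, 0.698 and 0.133). Ptprc, which encodes the pan-leukocyte antigen CD45, had signals of 850, 601 and 710 in fetal liver, against 3556, 2844 and 2696 in marrow. It fell by 2.07 ± 0.24 on the log2 scale (SE, limma adjusted p = 9.12e-04), and the call held in all 17 alternatives.

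**Figure D4:**
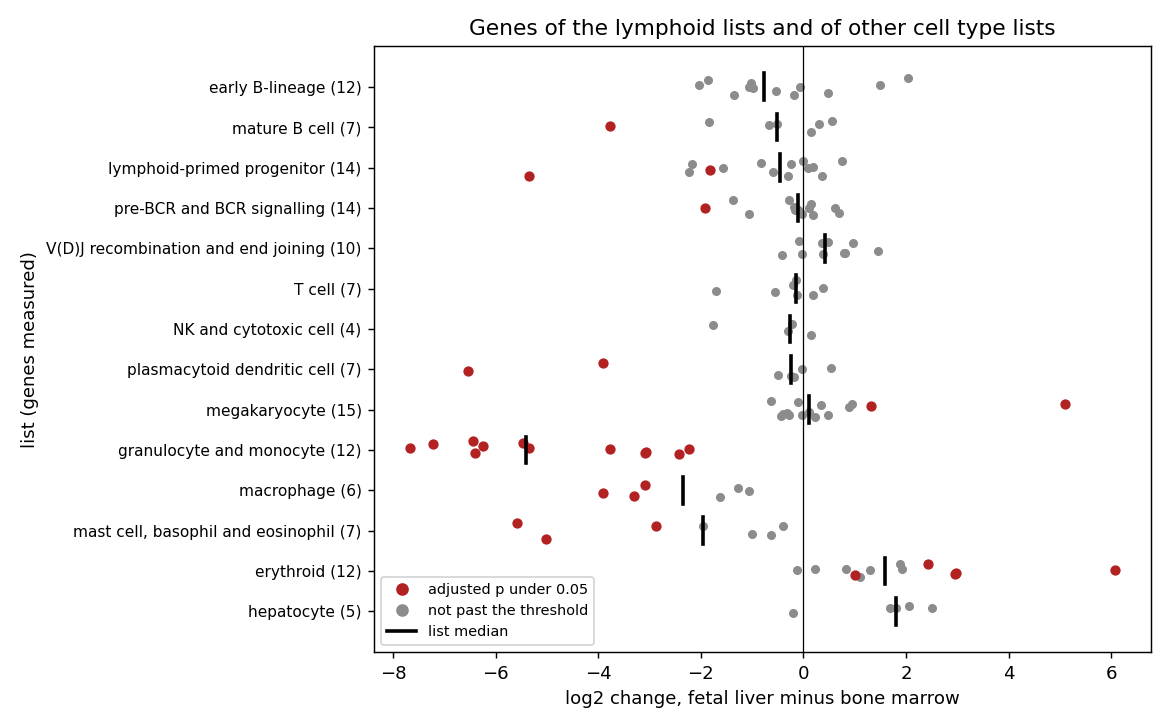
Log2 change, fetal liver minus bone marrow, of each measured gene in 8 lists of lymphoid and plasmacytoid dendritic cell genes and 6 lists of other cell types, with the list median as a bar and the number of genes measured in brackets. Red points are past the threshold. The lymphoid lists hold 6 of them, all left of 0, and the granulocyte and monocyte list 12 of 12. Some red points left of 0, Lair1 in the lymphoid lists among them, passed the filter through marrow alone.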

How the data were processed

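Groups were taken from the sample labels. Per the submitters' processing notes the authors computed the intensity signals with MAS5; the version, the scaling target and the genome build were not stated there. The deposited table held 45101 probe sets, 64 of them controls, and on every array the mean after trimming 2% at each end was 500. The number of arrays limits the precision.

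Signals were converted to log2(signal + 2.87), the 10th percentile of all signals, which understates changes of dim genes. The 2 tissues were tested with limma 3.58.1 in R 4.3.3 (lmFit and trended eBayes), adjusting p by Benjamini-Hochberg over 27022 kept probe sets, and the procedure was tested on simulated data. SE is that of the fit. Probe sets were named by the platform annotation: 34958 had 1 symbol, 932 several and 9211 none listed, controls included. List genes without a probe set of their own were not analysed here.

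The genes and lists were chosen with earlier results of these data known. All 10 genes are named; from each of the 8 lymphoid and dendritic lists up to 3 genes past the threshold (or the 2 smallest p), the brightest gene of every list and the sort markers with Ptprc and Pf4. Other genes named, with defining markers of a cell type, were added after their values were seen. The nearest gene is given for genes above background on all arrays of a tissue. As alternatives, offsets of 1 and 16, median centring, quantile normalization, no filter or one at the 60th percentile, no variance trend, 1 probe set per gene, probe sets prone to cross-hybridisation, a floor at background, the replicate number as a block and each array left out, were run, the last with the kept probe sets unchanged. Figures were drawn with matplotlib 3.10.9.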

Additional observations from a re-analysis of the deposited data

How the results depend on the processing

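Over the whole array 482 probe sets were higher and 886 lower in fetal liver. The first count was 1291 under median centring, which moved the median change by 0.25 (log2; 0.11 under quantile normalization), and 195 without the variance trend. The second was 526 without the trend and 553 with 1 probe set per gene, where fewer were tested. With 1 array left out they ran from 153 to 443 and from 456 to 683. The 4 lymphoid probe sets lower in fetal liver were 1 with the filter at the 60th percentile, which removed Dntt, and 2 with 1 probe set per gene, both by fewer being tested, and 3 to 4 with an array left out. No lymphoid probe set was called higher under any alternative, and in the limma fit with no filter 0 were higher and 9 lower at an unadjusted p under 0.05. The 6 genes of the other lymphoid lists became 3 to 5 with an array left out. With an array left out the log2 change of Cd79b ran from -0.21 to 0.88, of Rag2 from -1.19 to 0.24 and of Igll1 (1420176_x_at) from -1.36 to 0.97, and no kept lymphoid probe set changed sign under the other alternatives. With the replicate number as a block 717 were higher and 1077 lower, and 3 lymphoid probe sets were lower. Deviations of same-numbered arrays correlated at 0.123, -0.0181 and 0.096, and not every array correlated best with its own number, so the block is not read as a pairing. Signals near the background limit carry little information, which touches Ebf1, Blnk, Rag2, Igll1 and most Ighm probe sets.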

Other observations

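Some dim lymphoid genes below the filter, picked after their values were seen, were above background on marrow arrays alone. Pou2af1, a B cell coactivator of octamer factors, had signals of 3.71, 1.36 and 0.932 in fetal liver, against 52.9, 86.1 and 43.9 in marrow, at least 1.87-fold lower (limma adjusted p = 0.0149 in the fit with no filter). Klrd1, which encodes the natural killer receptor chain CD94, had 0.226, 1.20 and 5.12 in fetal liver, against 65.1, 28.3 and 23.6 in marrow, at least 1.17-fold lower (limma adjusted p = 0.0433 in the fit with no filter). The costimulatory receptor Cd28 had 13.7, 20.4 and 5.94 in fetal liver, against 54.1, 31.7 and 43.1 in marrow (limma adjusted p = 0.325 in the fit with no filter). Of the other dim genes of the lymphoid lists some shared this direction and some did not. Rag1, Cd79a, Thy1 and Il2rb were above background on 2 marrow arrays and on no fetal liver array. Going the other way, Spib was above background on 3 fetal liver arrays and 1 marrow array. Pax5, Cd83, Fcmr and Cd3g were above it on 1 fetal liver array and on no marrow array. Bank1, below it on all arrays, was higher in fetal liver without overlap.

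Rag1, Thy1 and Cd3e, also picked after their values were seen, had their highest signal on marrow replicate 2. Some other lymphoid genes shared this, such as Igll1 (1420176_x_at), Ikzf3 and Il2rb, and some did not. Of the lymphoid probe sets in the main comparison, 7 were highest among marrow arrays on replicate 2, against 8 on replicate 1 and 12 on replicate 3. Among marrow arrays Rag2 and Cd79b were lowest on replicate 2, and Cd8a and Il7r were highest on replicate 3. Rag1, the partner of Rag2, had 5.56, 1.81 and 0.709 in fetal liver, against 1.13, 56.3 and 26.1 in marrow. Thy1 had 3.87, 12.0 and 3.07 in fetal liver, against 1.76, 213 and 86.8 in marrow. Cd3e, a chain of the T cell receptor complex, had 2.98, 1.84 and 1.49 in fetal liver, against 3.36, 109 and 2.57 in marrow, so that 1 array carried its signal. Cd79a, Rag1, Thy1 and the 2 brightest Ebf1 probe sets shared the pattern of marrow replicates 2 and 3 above background and marrow replicate 1 below it. The Gapdh 5' to 3' ratio was 0.099, 0.177 and 0.303 on marrow replicates 1, 2 and 3, and that of Actb 1.08, 1.13 and 1.06. The part of RNA integrity in this pattern was not tested.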
